A study of Mus musculus with 9 samples.

Results

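The genes described here are the cytoplasmic ribosomal protein genes of the mouse and the genes that carry small nucleolar RNAs (snoRNAs) in the introns of non-coding transcripts. They were taken by name from the deposited gene table: protein-coding genes named Rpl or Rps with a number, together with Rplp0, Rplp1, Rplp2 and Rpsa but without the Rps6k kinases, and Gas5 and the numbered Snhg genes of any biotype. The rule found 99 of the 54532 genes in the table, of which 51 encode proteins of the large subunit, 32 encode proteins of the small subunit and 16 are snoRNA hosts. The rule used no measured value.

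RNA-seq libraries were made from total RNA of the mouse intestine, 9 in all and 3 for each of 3 groups. Control mice were given corn oil by gavage and were not irradiated. IR mice were given corn oil and a dose of 12 Gy to the whole abdomen on day 4. IR+LYC mice received the same irradiation on day 4 and lycopene, the red carotenoid of tomato, dissolved in corn oil at 10 mg/kg per day for 10 days. All groups shared the corn oil vehicle. A group given lycopene alone belonged to the design and is not analysed here. The strain, age and sex of the mice and the segment of the gut are not given in the sources used here, nor is it stated that the 3 libraries of a group came from different mice, and p-values here thus rest on library-to-library spread, which may be technical.

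Ribosomal proteins are made in near equal numbers, each ribosome taking a single copy of most of them, and their mRNAs are among the most abundant in any dividing cell. Most of these mRNAs begin with a C followed by a run of pyrimidines, the terminal oligopyrimidine (TOP) tract, through which the kinase mTORC1 sets how much of them is translated. Gas5 and several Snhg transcripts begin with such a tract too. Their exons encode no known protein, and the spliced transcripts are cleared by nonsense-mediated decay when they are translated, while snoRNAs that guide rRNA modification are cut from their introns. In the intestine, ribosome production is highest in the dividing cells of the crypt and lower in the enterocytes of the villus.

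The starts of 8 members the results turn on are shown to give the letters around the start site. Each line holds 30 bases before and 20 bases from the start that RefSeq lists, in build GRCm38.p6, 5′ to 3′ on the strand of the gene, and capitals mark a C followed by at least 4 pyrimidines, with those pyrimidines. Where several such Cs lay within 10 bases of the start, the one nearest to it was taken, so pyrimidines just before it are in lower case and the capitals do not show where a run begins.
Gas5, chr1:161035136-161035185, plus strand: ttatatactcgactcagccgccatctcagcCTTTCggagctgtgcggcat
Snhg8, chr3:123508317-123508366, minus strand: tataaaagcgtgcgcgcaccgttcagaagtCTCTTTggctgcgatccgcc
Snhg5, chr9:88522878-88522927, minus strand: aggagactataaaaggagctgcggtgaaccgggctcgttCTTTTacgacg
Rpl7a, chr2:26910777-26910826, plus strand: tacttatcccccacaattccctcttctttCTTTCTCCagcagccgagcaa
Rps6, chr4:86857348-86857397, minus strand: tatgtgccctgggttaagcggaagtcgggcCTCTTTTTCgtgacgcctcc
Rpl22l1, chr3:28805478-28805527, plus strand: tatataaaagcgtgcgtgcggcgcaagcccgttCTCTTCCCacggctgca
Rps27l, chr9:66946056-66946105, plus strand: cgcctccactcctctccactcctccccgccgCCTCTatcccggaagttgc
Snhg1, chr19:8723457-8723506, plus strand: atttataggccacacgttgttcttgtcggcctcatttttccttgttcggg
In Gas5, Snhg8 and Rps6 the marked C was the listed start itself, and in Rpl7a, Rps27l and Rpl22l1 it lay within 3 bases of it. In Snhg5 it lay 9 bases downstream, and the Snhg1 window held none by this search. RefSeq lists 2 starts each for Gas5 and Rps27l, and the window shown is the one with such a stretch, since the other held none.

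RefSeq promoter sequences were matched by symbol for 77 of the 99 members. A tract of this kind lay within 10 bases of a listed start in 39 of 63 ribosomal protein genes (61.9%) and in 8 of 14 snoRNA hosts (57.1%), against 34.4% of the 27025 genes with a promoter and 30.7% of all 32851 promoters. The motif CCGGAAG, searched on both strands of the 300 bases from 250 before to 50 after the start, was in 26 of the 63 ribosomal protein genes (41.3%) and 4 of the 14 hosts (28.6%), against 9.93% of all genes and 8.86% of all promoters. The motif TATAAA on either strand was in 7 of the 63 ribosomal protein genes (11.1%), 5 of the 14 hosts (35.7%), 15.7% of all genes and 13.6% of all promoters. The motif CACGTG, which reads the same on both strands, was in 6 of the 63 (9.52%), 2 of the 14 (14.3%), 8.09% of all genes and 7.15% of all promoters.

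The deposited values are FPKM, read counts scaled by gene length and by library. Whole reads could be recovered from them, and the libraries held 17803889 to 22414949 reads. The libraries did not all sit with their group. The mean log2(FPKM + 1) of 16 enterocyte markers was 9.48, 8.73 and 8.95 in the control libraries, 8.21, 5.68 and 8.55 in the IR libraries, and 4.70, 9.45 and 6.72 in the IR+LYC libraries, so that the second IR+LYC library was at the level of the controls and the first was the lowest of all. Phlda3, a p53 target induced by radiation, was at 3.89 to 4.75 FPKM in control, 12.9 to 18.0 FPKM in IR, and 21.5, 5.64 and 16.5 FPKM in the 3 IR+LYC libraries. Calls between IR+LYC and control that turn on the second IR+LYC library are given with and without it.

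Of the 99 members, 92 reached at least 0.5 FPKM in at least 3 libraries and were tested together with all 15391 genes that did. These were 48 large subunit genes, 32 small subunit genes and 12 snoRNA hosts. The members not tested were Rpl10l, Rpl39l and Rpl3l, which are paralogs used mainly in testis or muscle, and Snhg3, Snhg9, Snhg11 and Snhg14. Rpl10l was listed at 0 in all libraries, Rpl39l reached at most 0.223 FPKM and Rpl3l at most 0.194 FPKM. The ribosomal protein genes spanned a wide range of FPKM per library, a scale that depends on the gene length in the table as well as on the RNA. By mean over the 9 libraries the highest were Rplp1 at 1868 FPKM, Rplp0 at 1130.0 FPKM, Rps3a1 at 1009 FPKM, Rps15 at 812 FPKM, Rps2 at 756 FPKM and Rpl41 at 705 FPKM. The snoRNA hosts lay far lower, from Snhg8 at 17.2 FPKM and Gas5 at 15.0 FPKM down to Snhg10 at 1.03 FPKM.

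Irradiation was compared with control first. No member passed limma at an adjusted p of 0.05, where 0.0195% of all genes did (3 of 15391; 1284 genes had an unadjusted p under 0.05). The ribosomal protein genes were nevertheless higher by a small amount almost throughout: 77 of the 80 tested had a higher mean log2 value in IR, with a median log2 difference of 0.16 against -0.01 over all genes tested. Over 21 settings of the processing, 72 to 80 of them were higher. In 38 of the 80 every IR library exceeded every control library, against 14.1% of all genes, and an unadjusted p under 0.05 in this direction was found for 3 of them, against 3.9% of all genes. Of the 12 snoRNA hosts 9 had a higher mean, with a median log2 difference of 0.12, 2 did not overlap, and 1 had an unadjusted p under 0.05.

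**Figure D1:**
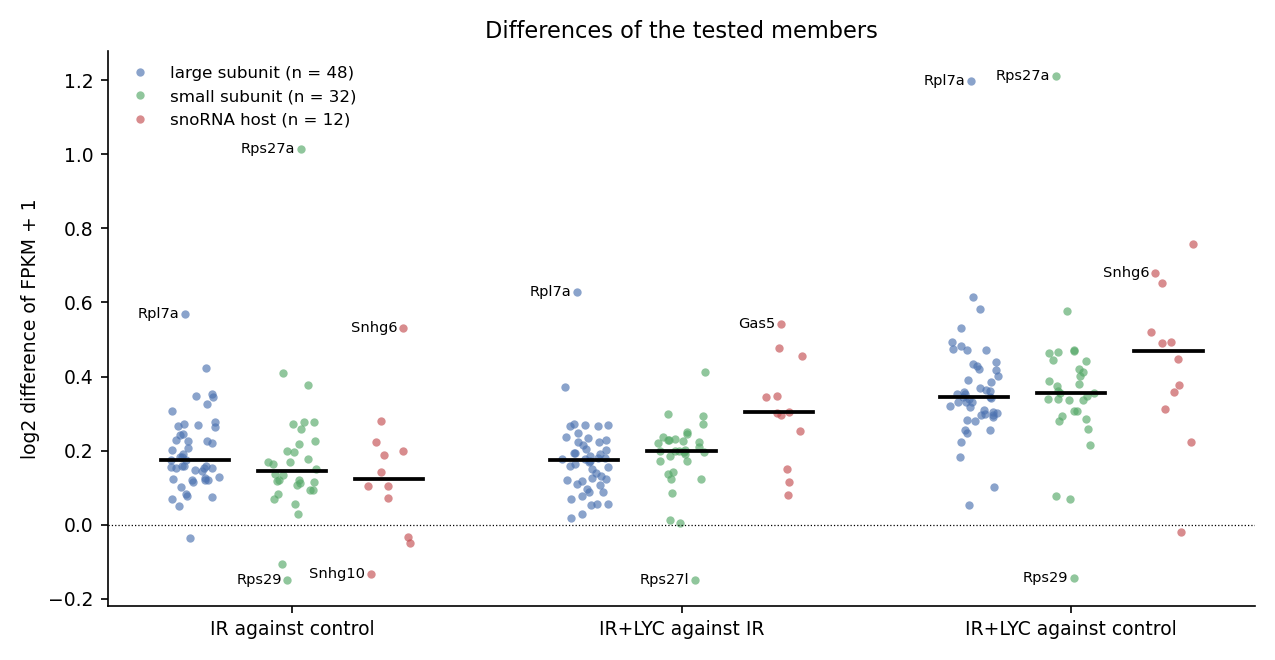
Log2 difference of FPKM + 1 for each tested member (points) in the 3 comparisons, split into large subunit genes, small subunit genes and snoRNA hosts, with the median of each as a black line. Nearly all points lie above 0, the medians in the comparison of IR+LYC with control are 0.34, 0.36 and 0.47, and Rpl7a and Rps27a stand above the rest of their subunits.

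Lycopene with irradiation was then compared with irradiation alone. No member and no other gene passed at an adjusted p of 0.05 (background 0%; 655 of the 15391 genes had an unadjusted p under 0.05, and limma-voom on the recovered reads called 0). The mean was higher in IR+LYC for 79 of the 80 ribosomal protein genes, with a median log2 difference of 0.19, and the exception was Rps27l. Their groups mostly overlapped: 4 of 80 did not, against 4.25% of all genes, and 1 of 80 had an unadjusted p under 0.05 against 2.26% of all genes, so that neither count stood above the background. The snoRNA hosts differed from this in count. All 12 had a higher mean in IR+LYC, with a median log2 difference of 0.30, the groups of 6 did not overlap, and 6 had an unadjusted p under 0.05. These 6 were Gas5, Snhg1, Snhg5, Snhg8, Snhg12 and Snhg17. The difference between hosts and ribosomal protein genes was not tested.

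Between IR+LYC and control, which shares its libraries with both of the other comparisons, no member passed at an adjusted p of 0.05, where 0.0195% of all genes did (3 of 15391; 2176 had an unadjusted p under 0.05). The median log2 difference was 0.35 for the 80 ribosomal protein genes, of which 79 had a higher mean, and 0.47 for the 12 hosts, of which 11 did. An unadjusted p under 0.05 was found for 27 ribosomal protein genes and 9 hosts, all higher in IR+LYC, against 6.6% of all genes. The groups did not overlap, with IR+LYC higher, for 41 ribosomal protein genes and 8 hosts, against 8.87% of all genes. One ribosomal protein gene, Rps29, did not overlap in the other direction.

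The second IR+LYC library decided the outcome of that test. Without it, limma at an adjusted p of 0.05 called 48 of the 80 ribosomal protein genes and 6 of the 12 hosts higher in IR+LYC than in control, against 11.2% of all genes called higher (1731 of 15391; 4120 genes were called in either direction). The median log2 difference was then 0.49 for the ribosomal protein genes and 0.44 for the hosts. The hosts called were Gas5, Snhg1, Snhg5, Snhg6, Snhg8 and Snhg12. Against IR, no gene was called without that library, and the medians were 0.32 and 0.33. That library was singled out after the values were seen, and without it only libraries 1 and 3 of IR+LYC remain. It was the lowest of its group in the ribosomal protein genes (median offset 0.11, beside 0.42 and 0.54). Leaving it out thus raises their difference by construction. The calls and adjusted p-values without it, here and below, are descriptions and not support. When any other single library was left out, no member was called.

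Set against the control mean, the ribosomal protein genes moved as a block in each library. Their median offset on the log2 scale was -0.10, 0.08 and 0.01 in the control libraries, 0.13, 0.26 and 0.13 in the IR libraries, and 0.42, 0.11 and 0.54 in the IR+LYC libraries. IR+LYC libraries 1 and 3 were thus the highest. The second IR+LYC library, at 0.11, lay between the highest control library (0.08) and the lowest IR library (0.13). The third IR+LYC library held the highest of the 9 values for 54 of the 80 genes and the first for 18, while control library 1 held the lowest for 58. Large and small subunit genes followed the same course, with medians of 0.43, 0.13 and 0.53 for the large and 0.42, 0.10 and 0.56 for the small subunit in the 3 IR+LYC libraries.

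The snoRNA hosts did not follow that course in the second IR+LYC library. Their median offset was 0.15, 0.04 and -0.15 in the control libraries, 0.07, 0.25 and 0.01 in the IR libraries, and 0.44, 0.39 and 0.50 in the IR+LYC libraries, so that all IR+LYC libraries lay above every other library. In the second IR+LYC library all 12 hosts were above their control mean. As a share of the recovered reads, ribosomal protein genes took 2.85 to 3.58% in control and 3.69 to 5.13% in IR, and 6.11, 3.21 and 6.07% in IR+LYC. Hosts took 0.0117 to 0.0142% in control, 0.0139 to 0.0211% in IR and 0.0178 to 0.0277% in IR+LYC. In bulk RNA such as this, more cells of a type and more RNA per cell cannot be told apart.

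**Figure D2:**
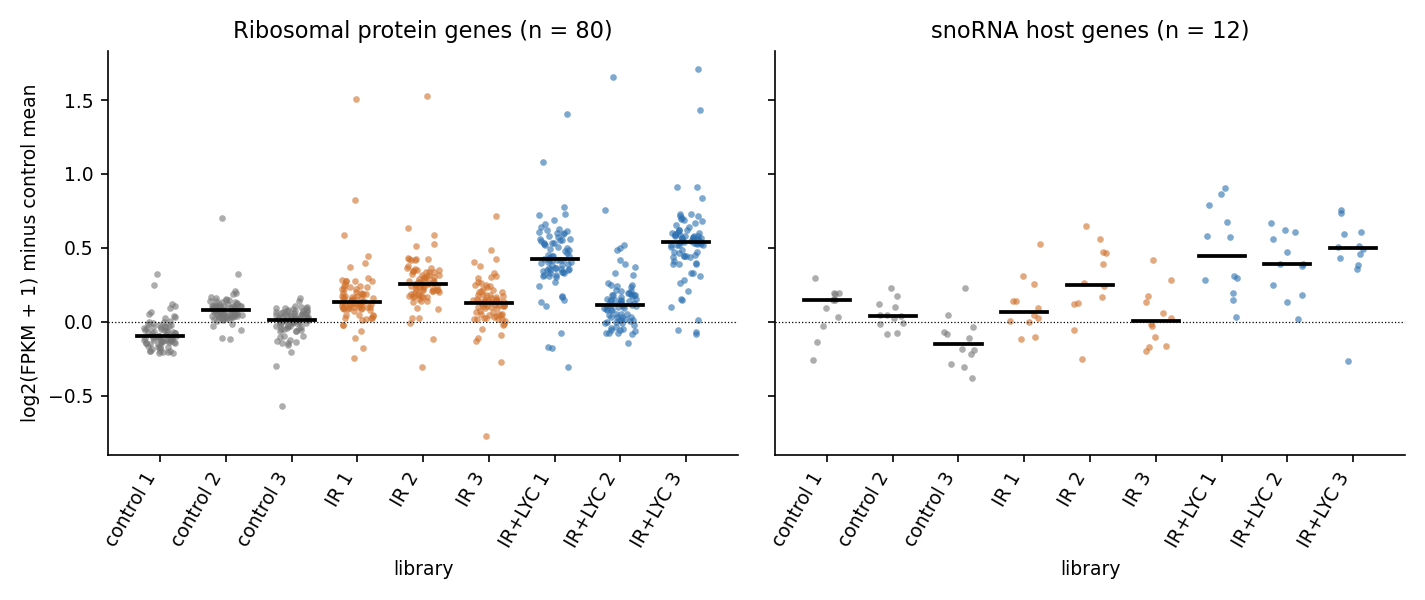
Offset of each tested member (points) from its control mean in log2(FPKM + 1), by library, with the median as a black line, for 80 ribosomal protein genes and 12 snoRNA hosts. The second IR+LYC library has a median of 0.11 for ribosomal protein genes but 0.39 for hosts.

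Markers of other cell states moved across the same libraries. The mean log2(FPKM + 1) of 16 markers of proliferating crypt cells was 3.49, 3.85 and 3.62 in the control libraries, 3.76, 4.21 and 3.84 in the IR libraries, and 4.17, 3.69 and 4.15 in the IR+LYC libraries, and that of 10 crypt base stem cell markers was 3.60 to 3.61, 3.69 to 3.85, and 4.45, 3.38 and 4.09. IR+LYC libraries 1 and 3 were above the second in both lists, as for the ribosomal protein genes. Here library 1 was above library 3, whereas library 3 was the higher for the ribosomal protein genes. The second library lay within the control range for proliferating crypt markers and below it for stem cell markers. Enterocyte markers, given above, were highest in the second IR+LYC library of that group. All 16 proliferating crypt markers had a higher mean in IR than in control, with a median log2 difference of 0.29, and all 16 enterocyte markers a lower one, with a median of -1.20. None of these markers passed the adjusted threshold over all 9 libraries. Without the second IR+LYC library 6 proliferating crypt and 7 stem cell markers were called higher, and 11 enterocyte markers lower, in IR+LYC than in control. In that fit 1731 of all 15391 genes (11.2%) were called higher and 2389 lower. For 8 goblet markers the mean was 6.57 to 7.39 (control), 6.77 to 6.89 (IR), then 7.14, 7.60 and 7.23 (IR+LYC). The second IR+LYC library was the highest of all 9. Between IR+LYC and IR, 3 of the 8 did not overlap, against 4.25% of all genes. Paneth markers (8) had means of 9.53 to 9.85, 8.77 to 9.44, then 9.52, 8.41 and 9.31, lowest in the second IR+LYC library. No goblet or Paneth marker was called over all 9 libraries.

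Markers of the gut wall and of immune cells differed as well. The mean log2(FPKM + 1) of 10 smooth muscle markers was 4.73 to 4.97 in the control libraries, 5.62 to 5.97 in the IR libraries, and 6.58, 4.67 and 5.87 in the IR+LYC libraries. All 10 were higher in every IR library than in any control library, with a median log2 difference of 1.03, against 14.1% of all genes that did not overlap in this way. For 10 fibroblast and matrix markers the mean was 4.402 to 4.459 in the control libraries, 4.999 to 5.416 in the IR libraries, and 5.40, 3.79 and 4.78 in the IR+LYC libraries, and for 10 macrophage markers 4.20 to 4.33, 4.49 to 5.17, and 5.06, 4.14 and 4.79. In these 3 lists, as for the ribosomal protein genes, the second IR+LYC library was the lowest of its group. Lymphocyte markers lay the other way, with means of 3.52 to 4.07, 2.44 to 2.77, and 1.65, 2.93 and 2.33 for 14 T and intraepithelial lymphocyte markers and 4.25 to 5.16, 2.958 to 3.198, and 2.46, 3.89 and 3.60 for 10 B and plasma cell markers. Over all 9 libraries 0 markers of these 5 lists were called in any comparison. Without the second IR+LYC library, 8 smooth muscle, 4 fibroblast and 6 macrophage markers were called higher, and 10 T and 6 B cell markers lower, in IR+LYC than in control. The background there was 1731 genes higher (11.2%) and 2389 lower, of 15391. Erythroid markers (4 tested) had means of 3.07 to 3.74 (control), 2.18 to 2.68 (IR), then 2.55, 5.33 and 3.12 (IR+LYC). The second IR+LYC library was the highest of all 9. Neutrophil markers (4 tested), at 0.94 to 1.06, 1.34 to 2.09, then 2.11, 0.91 and 1.29, were lowest in that library. No erythroid or neutrophil marker was called over all 9 libraries. The part of any of these cell types in the ribosomal protein and host differences was not tested.

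**Figure D3:**
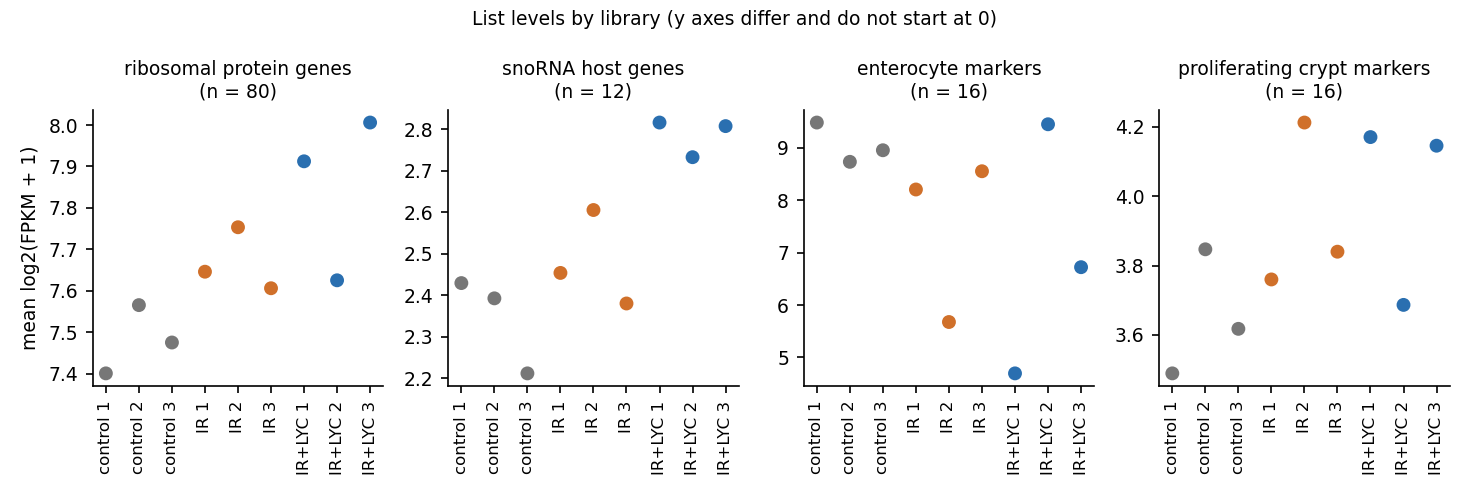
Mean log2(FPKM + 1) per library of ribosomal protein genes, snoRNA hosts, 16 enterocyte markers and 16 proliferating crypt markers, with grey for control, orange for IR and blue for IR+LYC. The second IR+LYC library is at 9.45 for enterocyte markers, beside 4.70 and 6.72 in the other two, and at 7.63 for ribosomal protein genes, beside 7.91 and 8.01.

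Among the large subunit genes, Rpl7a, which encodes a protein of the family that binds kink-turns in RNA, had the highest log2 difference in each comparison. It was at 92.0, 87.1 and 75.7 FPKM in control, 128, 132 and 119 FPKM in IR, and 226, 143 and 230.1 FPKM in IR+LYC. The groups were ordered with no overlap at either step. Its log2 difference was 0.57 ± 0.20 (SE, n = 3 per group) between IR and control, 0.63 ± 0.20 between IR+LYC and IR, and 1.20 ± 0.20 between IR+LYC and control. In limma the adjusted p of the last was 0.183 over all genes, the lowest among the ribosomal protein genes, and 0.00789 without the second IR+LYC library. Rpl7a has 12 named processed pseudogenes in the table, whose reads came to 14.2% of its own. With those reads added, and the sum scaled by the library divisor of the FPKM but not by length (RPM), it was at 203, 189 and 175 RPM in control, 256, 275 and 249.6 RPM in IR, and 439.8, 295 and 443 RPM in IR+LYC, in the same order.

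Rpl30 and Rpl35 were the other 2 ribosomal protein genes ordered from control through IR to IR+LYC without overlap, and such an order was found in 3 of the 80 (3.75%) and in 0.214% of all genes. Rpl30, which in yeast also binds and regulates its own transcript, was at 90.2, 96.2 and 68.0 FPKM in control, 103, 97.5 and 97.9 FPKM in IR, and 123, 110.1 and 159 FPKM in IR+LYC. Rpl35 was at 224, 223 and 201 FPKM, then 246, 247 and 255 FPKM, then 292, 269 and 314 FPKM. Their log2 differences between IR+LYC and control were 0.62 ± 0.19 and 0.43 ± 0.14 (SE), with adjusted p of 0.319 and 0.323 in limma, and 0.0319 and 0.0315 without the second IR+LYC library.

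The acidic P proteins form the stalk that recruits the elongation factors. Rplp1, the most abundant member per length, was at 1374, 1649.9 and 1627 FPKM in control, 1821, 1931 and 1834 FPKM in IR, and 2297, 1713 and 2564 FPKM in IR+LYC. All 6 irradiated libraries exceeded the controls. Its log2 difference was 0.27 ± 0.22 between IR and control and 0.48 ± 0.22 between IR+LYC and control, with adjusted p of 0.682 and 0.363, and the latter was 0.0326 without the second IR+LYC library (limma). Rplp0, the anchor of the stalk and a common reference gene in quantitative PCR, was at 865, 1033 and 1092 FPKM in control, 1061, 1192 and 1107 FPKM in IR, and 1353, 942 and 1525 FPKM in IR+LYC. Its groups overlapped in all comparisons, as did those of Rplp2, whose group means were 161 ± 16.3, 176 ± 14.2 and 202 ± 39.3 FPKM (SD, n = 3). Without the second IR+LYC library their adjusted p between IR+LYC and control was 0.0519 and 0.0517 in limma.

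In the small subunit, Rps6, the protein phosphorylated by S6 kinase downstream of mTORC1, was at 430.4, 467 and 433 FPKM in control, 537, 566 and 509.7 FPKM in IR, and 685, 512 and 656 FPKM in IR+LYC. Every irradiated library exceeded every control, with a log2 difference of 0.28 ± 0.17 for IR and 0.47 ± 0.17 for IR+LYC against control (adjusted p of 0.648 and 0.331 in limma, and the latter 0.0268 without the second IR+LYC library). Across the members, all 6 irradiated libraries exceeded all 3 controls for 28 of the 80 ribosomal protein genes (35%) and 2 of the 12 hosts, Snhg6 and Snhg8, against 4.19% of all genes. Rpsa, also known as the laminin receptor, had group means of 356 ± 44.0, 429 ± 41.1 and 499.6 ± 116 FPKM. Rps19 and Rps14, both known from anaemias with too few ribosomes in humans, had log2 differences of 0.47 ± 0.17 and 0.31 ± 0.19 between IR+LYC and control. With the second IR+LYC library left out, the adjusted p in limma was 0.0295 for Rpsa, 0.0233 for Rps19 and 0.148 for Rps14.

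Rpl5 and Rpl11 bind MDM2 when ribosome assembly fails, which stabilises p53, and Rpl26 binds the p53 mRNA. Rpl5 was at 171 to 192 FPKM in control, 167 to 217 FPKM in IR and 178 to 266 FPKM in IR+LYC, with overlap throughout. Rpl11 and Rpl26 overlapped likewise, with log2 differences of 0.16 ± 0.17 and 0.07 ± 0.19 between IR and control. Between IR+LYC and control without the second IR+LYC library, the adjusted p of Rpl5, Rpl11 and Rpl26 was 0.0376, 0.0584 and 0.0727 in limma. A list of 14 tested genes covered the route from ribosomal proteins through MDM2 to p53 and its targets. Of these, 3 had an unadjusted p under 0.05 and a higher mean in IR, against 3.9% of all genes, and none passed after adjustment. They were Eda2r, Ccng1 and Phlda3, with log2 differences of 0.96, 0.64 and 1.57 (adjusted p of 0.200, 0.284 and 0.361, limma). Eda2r was at 0.189 to 0.242 FPKM in control and met the minimum of 0.5 FPKM only through the irradiated libraries. Its count among the 3 is thus no support, and the pseudocount understates its difference. With the second IR+LYC library left out of the fit, 2 of the 14 were called higher in IR than in control, and 5 higher and 3 lower in IR+LYC than in control. Of all 15391 genes, 23 were called higher in the first comparison, and 1731 (11.2%) higher and 2389 lower in the second.

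Several ribosomal proteins have a paralog that can take their place, and some of these pairs differed in their values. Rps27l, which in mouse and human is a p53 target, was at 153, 148 and 131 FPKM in control, 196, 184 and 193 FPKM in IR, and 154, 206 and 159.6 FPKM in IR+LYC. It was higher in every IR library than in any control library. IR+LYC libraries 1 and 3 were near the controls and the second was the highest of all 9, the reverse of most ribosomal protein genes. Its log2 difference was 0.41 ± 0.16 between IR and control (unadjusted p 0.0299, adjusted p 0.546, limma) and -0.15 ± 0.16 between IR+LYC and IR. Its partner Rps27 had group means of 201 ± 11.6, 209 ± 6.59 and 211 ± 14.6 FPKM.

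Rpl22l1, the paralog of Rpl22, was at 22.4, 25.3 and 23.1 FPKM in control, 28.8, 34.1 and 28.3 FPKM in IR, and 36.2, 30.8 and 32.5 FPKM in IR+LYC. All irradiated libraries exceeded the controls. The log2 difference was 0.35 ± 0.12 for IR and 0.47 ± 0.12 for IR+LYC against control, with adjusted p of 0.517 and 0.28 in limma, and the latter was 0.0290 without the second IR+LYC library. Rpl22 had log2 differences of 0.15 ± 0.14 and 0.35 ± 0.14 in these comparisons. Rpl7l1, a paralog of Rpl7 with a role in assembly of the ribosome, had log2 differences of 0.20 ± 0.13 and 0.26 ± 0.13, and Rpl7 itself 0.22 ± 0.16 and 0.36 ± 0.16. Without the second IR+LYC library the adjusted p between IR+LYC and control was 0.0496 for Rpl22, 0.0998 for Rpl7l1 and 0.0295 for Rpl7 in limma. The widely expressed Rpl39 and Rpl3 were at 159 ± 11.8 and 254 ± 14.9 FPKM in control, where Rpl39l and Rpl3l fell short of the minimum for testing.

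**Figure D4:**
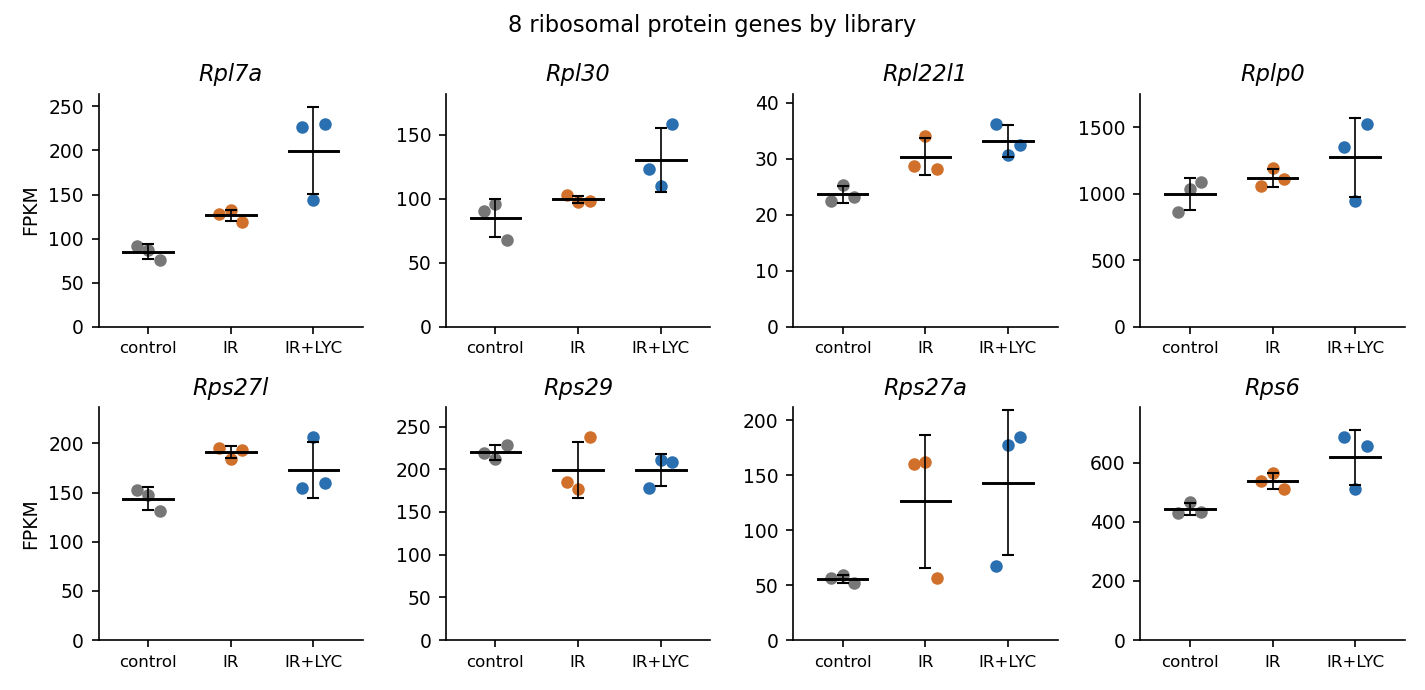
FPKM of 8 ribosomal protein genes in each library (points), with the group mean (line) and SD (bar), n = 3 per group, and y axes that start at 0 and differ in scale. Rpl7a and Rpl30 are ordered by group without overlap, Rps27l is high in IR, and Rps27a takes values of either 51.7 to 67.3 or 159.8 to 184 FPKM.

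A few genes departed from the block. Rps27a, which encodes a fusion of ubiquitin with a small subunit protein, was at 56.6, 58.9 and 51.7 FPKM in control, 159.8, 162 and 56.3 FPKM in IR, and 67.3, 178 and 184 FPKM in IR+LYC. It took either a low or a high level, and 1 library of each irradiated group stayed at the low one. Its log2 differences of 1.02 ± 0.49 and 1.21 ± 0.49 from control therefore had wide errors, with adjusted p of 0.615 and 0.346, and its named pseudogenes held only 1.86% as many reads.

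Rps29, one of the shortest ribosomal proteins, was at 219, 212 and 228 FPKM in control, 185, 177 and 237 FPKM in IR, and 177, 211 and 209 FPKM in IR+LYC. Every IR+LYC library lay below every control, though the log2 difference of -0.14 ± 0.16 was within its error, and its sign turned when the libraries were scaled to equal FPKM sums (0.12). Of the 80 tested ribosomal protein genes, 74 have a principal transcript with a coding length in the annotation, and 6, Rpl41 among them, do not. The 10 of the 74 with the shortest coding sequences, from Rpl39 to Rpl36, had medians of 0.10 between IR and control, 0.08 between IR+LYC and IR, and 0.27 between IR+LYC and control, beside 0.17, 0.20 and 0.36 for the 64 others. That split was made after the values were seen and was not tested.

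Processed pseudogenes complicate some members. They were found by name only, as the gene symbol with the ending -ps, so copies under other names were not counted. Such named pseudogenes are listed for 60 members, and for 12 of these they held at least 10% as many reads as the gene. For Rps10, Rpl17 and Rpl21 they held more reads than the gene itself. Rps10 was at 1.11 to 2.35 FPKM over the 9 libraries, while Rps10-ps2 was at 189.9 to 333 FPKM. Rpl17 varied most in control, at 178, 317 and 131 FPKM, where its pseudogene Rpl17-ps10 was at 365, 178 and 369.6 FPKM, high where the gene was low. Reads of the 3 genes and their copies cannot be told apart here, and their differences between groups are uncertain. Without the 12 genes the ribosomal protein median was 0.17 between IR and control and 0.35 between IR+LYC and control, a setting chosen after the data were seen.

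Gas5, a host of snoRNAs whose transcript is known to build up when translation or growth is arrested, lies on chromosome 1 at 161034422 to 161038539. It was at 14.2, 13.1 and 12.4 FPKM in control, 12.3, 14.5 and 11.7 FPKM in IR, and 20.2, 18.7 and 18.2 FPKM in IR+LYC. Control and IR overlapped, and all IR+LYC libraries lay above both. The log2 difference was 0.54 ± 0.11 between IR+LYC and IR, with an unadjusted p of 0.00121 and an adjusted p of 0.994 in limma, and 0.49 ± 0.11 between IR+LYC and control, with an adjusted p of 0.231 that was 0.0294 without the second IR+LYC library. Its log2 difference of -0.05 ± 0.11 between IR and control was within the error, and turned to 0.23 when the libraries were scaled to equal FPKM sums.

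Snhg1 and Snhg5 showed the same placing of the IR+LYC libraries with a higher second IR library. Snhg1 was at 6.47, 5.95 and 4.93 FPKM in control, 6.46, 8.31 and 5.70 FPKM in IR, and 10.7, 8.98 and 9.29 FPKM in IR+LYC. Snhg5 was at 5.88, 5.54 and 3.86 FPKM, then 5.64, 7.89 and 5.61 FPKM, then 9.98, 8.57 and 9.04 FPKM. For both genes every IR+LYC library lay above all 6 others. Their log2 differences from IR were 0.46 ± 0.15 and 0.48 ± 0.17, and from control 0.65 ± 0.15 and 0.76 ± 0.17 (adjusted p of 0.231 for each, limma, and 0.0291 and 0.0294 without the second IR+LYC library). Snhg12 overlapped between IR+LYC and IR but not between IR+LYC and control, with a log2 difference of 0.52 ± 0.13 from control (adjusted p of 0.0263 in limma without the second IR+LYC library).

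**Figure D5:**
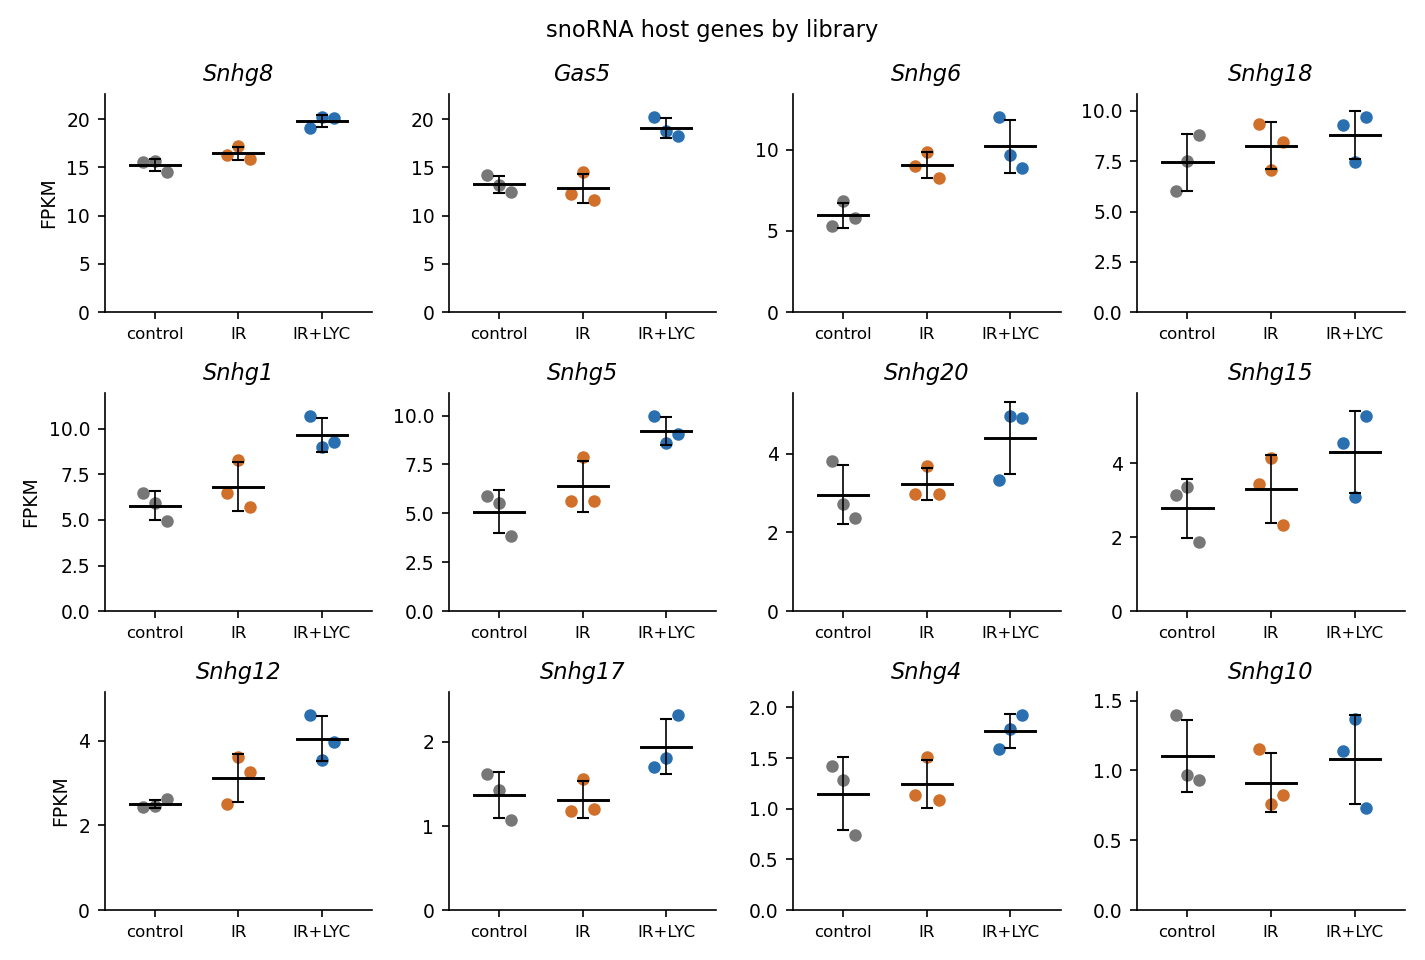
FPKM of the 12 tested snoRNA hosts in each library (points), with the group mean (line) and SD (bar), n = 3 per group, ordered by mean FPKM, and y axes that start at 0 and differ in scale. For Gas5, Snhg8, Snhg1, Snhg5, Snhg17 and Snhg4 all IR+LYC libraries lie above all IR libraries, while Snhg6 is already high in IR.

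Snhg8 was the host ordered by group without overlap at either step, at 15.6, 15.6 and 14.5 FPKM in control, 16.3, 17.2 and 15.9 FPKM in IR, and 19.1, 20.2 and 20.1 FPKM in IR+LYC. Its steps were 0.10 ± 0.09 and 0.25 ± 0.09 on the log2 scale. For Snhg6 the gap lay between control and irradiated libraries, at 5.31, 6.82 and 5.77 FPKM in control, 9.01, 9.85 and 8.28 FPKM in IR, and 12.0, 9.68 and 8.90 FPKM in IR+LYC. Its log2 difference was 0.53 ± 0.14 between IR and control, with an unadjusted p of 0.00428 and an adjusted p of 0.366, and 0.15 ± 0.14 between IR+LYC and IR. The adjusted p between IR+LYC and control was 0.0339 for Snhg8 and 0.0255 for Snhg6 in limma without the second IR+LYC library.

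The lower hosts were less clear. Snhg4 was at 0.742 to 1.43 FPKM in control, 1.09 to 1.51 FPKM in IR and 1.59 to 1.92 FPKM in IR+LYC, and Snhg17 was at 1.07 to 1.61, 1.18 to 1.56 and 1.71 to 2.32 FPKM. In both, the IR+LYC libraries lay above all others. Snhg15, Snhg18 and Snhg20 overlapped in all comparisons, with log2 differences of 0.49 ± 0.24, 0.22 ± 0.16 and 0.45 ± 0.17 between IR+LYC and control. Snhg10 overlapped throughout, with group means of 1.10 ± 0.257, 0.912 ± 0.213 and 1.08 ± 0.319 FPKM (SD, n = 3). Since the log2 values carry a pseudocount of 1, differences of these low genes are understated.

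The snoRNAs themselves could hardly be read. Inside the 46 members that hold a snoRNA gene, 307 such genes are listed, of which 30 had any read and which held 829 reads in all libraries together. The 30 tested ribosomal protein genes that hold a snoRNA had median log2 differences of 0.18, 0.20 and 0.37 in the 3 comparisons, beside 0.15, 0.18 and 0.34 for the 50 that hold none. The 36 tested ribosomal protein genes with a tract near a listed start had medians of 0.19, 0.19 and 0.36, beside 0.16, 0.18 and 0.34 for 24 without. These splits are descriptions without a test, and the values lie close together.

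Other genes of ribosome production and translation gave the setting. The 77 tested genes for mitochondrial ribosomal proteins, which build the separate ribosome of that organelle, had median log2 differences of 0.15, 0.08 and 0.25, with 14, 3 and 36 at an unadjusted p under 0.05 and a higher mean, and 0 called after adjustment in each. Their offset in the second IR+LYC library was 0.19, beside 0.25 and 0.31 in the others. Among 60 genes of ribosome biogenesis the medians were 0.22, 0.11 and 0.34. Of these genes 5, 0 and 19 were higher at an unadjusted p under 0.05, and 0 were called. In the 3 comparisons such a p was found for 3.9%, 2.26% and 6.6% of all genes. The shares were 18.2%, 3.9% and 46.8% of the mitochondrial list and 8.33%, 0% and 31.7% of the biogenesis list. Between IR+LYC and IR the counts thus lay near or below the background. Gar1 and Nhp2, core proteins of the particles that pseudouridylate rRNA, had log2 differences of 0.57 and 0.77 between IR+LYC and control (adjusted p of 0.308 and 0.319). Without the second IR+LYC library, 21 of the 77 mitochondrial ribosomal protein genes and 30 of the 60 biogenesis genes were called higher in IR+LYC than in control, Gar1 and Nhp2 among them (adjusted p of 0.0266 and 0.0203, limma). The share of all genes called higher there was 11.2%. The biogenesis list followed the ribosomal protein genes in IR+LYC, with offsets of 0.53, 0.05 and 0.43.

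Among 20 other translation genes whose mRNAs carry a TOP tract or that act in elongation, the medians were 0.14, 0.14 and 0.29. Between IR+LYC and control 9 of them (45%) were higher at an unadjusted p under 0.05, against 6.6% of all genes, and 0 were called. Eef1b2, an exchange factor of elongation, was at 133 to 140.0 FPKM in control, 140.2 to 158 FPKM in IR and 160.0 to 206 FPKM in IR+LYC. The 23 initiation factors had medians of 0.21, 0.00 and 0.22. Without the second IR+LYC library, 11 of the 20 genes, Eef1b2 included (adjusted p of 0.0272, limma), and 8 of the 23 were called higher in IR+LYC than in control, against 11.2% of all genes. The 18 genes of nonsense-mediated decay, which clears host transcripts, had medians of 0.03, 0.03 and 0.10. Between IR+LYC and control 3 had an unadjusted p under 0.05 and a higher mean, against 6.6% of all genes. Without the second IR+LYC library, 0 of the 18 were called higher and 1 lower in that comparison. Fau, a gene for a small subunit protein that the naming rule does not reach, had group means of 794 ± 35.9, 717 ± 41.1 and 755 ± 138 FPKM (SD, n = 3).

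Regulators of mTORC1 and MYC did not move together, with medians of -0.01, -0.02 and 0.05 over 27 genes and 0 called. Ddit4, an inhibitor of mTORC1 induced by stress and glucocorticoids, was at 19.8, 22.0 and 30.5 FPKM in control, 31.6, 40.0 and 26.1 FPKM in IR, and 52.4, 57.9 and 54.5 FPKM in IR+LYC. All IR+LYC libraries, the second included, lay above every other library, as for Gas5. Its log2 difference was 0.76 ± 0.20 between IR+LYC and IR (unadjusted p 0.00497, adjusted p 0.994) and 1.18 ± 0.20 between IR+LYC and control (adjusted p 0.183, limma). Pdcd4, an inhibitor of the initiation factor eIF4A, was at 37.7 to 40.4, 38.2 to 43.9 and 51.1 to 55.9 FPKM in control, IR and IR+LYC, with the same placing. In the fit without the second IR+LYC library 5 of the 27 were called higher and 4 lower in IR+LYC than in control. Of all 15391 genes, 1731 (11.2%) were called higher and 2389 lower there. The adjusted p was 0.0231 for Ddit4 and 0.0293 for Pdcd4 in limma.

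Relative to the mean of the ribosomal protein genes in each library, few members stood apart by p-value. With 3 libraries per group, that does not show that they moved alike. Between IR+LYC and control the centred differences ran from -0.51 (Rps29) to 0.84 ± 0.50 (Rps27a, unadjusted p 0.129, limma). Their SD was 0.18 over the ribosomal protein genes and 0.21 over the hosts. After that centring 1 ribosomal protein gene had an unadjusted p under 0.05 between IR+LYC and IR, 2 did between IR+LYC and control, 1 in each direction, and none between IR and control. Of the 12 hosts 1 did between IR and control, 1 between IR+LYC and IR and 0 between IR+LYC and control, and no member was called after adjustment. By that unadjusted p the gene above the family mean was Rpl7a. It was above by 0.45 ± 0.17 between IR+LYC and IR and by 0.83 ± 0.17 between IR+LYC and control (adjusted p of 0.620 and 0.0541, limma). The gene below the family mean was Rps29, at -0.51 ± 0.21 between IR+LYC and control (adjusted p of 0.122). The hosts were Snhg6 between IR and control, at 0.34 ± 0.15, and Gas5 between IR+LYC and IR, at 0.36 ± 0.15 (adjusted p of 0.449 and 0.620). On the uncentred FPKM, the median coefficient of variation of the ribosomal protein genes was 7.67% among the controls, 6.97% within IR and 16.6% within IR+LYC, and that of the hosts 19.5%, 17.4% and 13.3%.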

How the data were processed

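The deposited table holds FPKM values per gene, made by the authors. The tools named per the submitters' processing notes are fastp and HISAT2 2.0.5. No version of fastp, counting tool or genome build is given in the sources used here. Among the members (99), 98 have IDs in GENCODE M21 (GRCm38) and 96 the same position there. Gene values were whole multiples of 1 read: all 202261 values above 0 came out whole within 0.01 read. The authors' library divisor came to between 0.854 and 1.26 of the recovered total, highest in IR+LYC 1.

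Here log2(FPKM + 1) was computed from the deposited FPKM and fitted in limma 3.58.1 (R 4.3.3) with a mean-variance trend over the 3 groups (6 residual degrees of freedom). Genes were tested where 3 or more libraries reached 0.5 FPKM (15391), and p-values were adjusted by the Benjamini-Hochberg method over all of them. A gene counted as called at an adjusted p under 0.05. The fit was tested on simulated data with changes larger than the median differences of the members and with no outlying library. That test does not show how the fit behaves for differences as small as these. Errors after ± are SE for log2 differences and SD for FPKM. The members and gene lists were chosen with earlier results of these data known. Genes were named by rule: all tested hosts, a list of ribosomal proteins with known roles and paralogs, the 6 most abundant, the members with the largest differences in each comparison, and up to 3 genes per pathway list by smallest p; Phlda3 also served as a check on irradiation, and other genes were chosen after their values were seen. Promoters are RefSeq sequences of GRCm38.p6. Alternatives covered the pseudocount, the filter, the scaling, the model and each library left out.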

Additional observations from a re-analysis of the deposited data

How the results depend on the processing

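No member was called in any comparison under any alternative except without the second IR+LYC library. Over all genes the calls of IR against control (3) were 1 with a pseudocount of 0.1 and 1 with a mean of at least 5 FPKM, 7 without a filter, 100 with only the 2 groups compared, 0 with limma-voom on recovered reads, and 0 to 98 leaving out a library. Those of IR+LYC against control (3) were 0, 1, 6, 1 and 0 in that order, 1 with each of the 3 total-based scalings, and 0 to 4120 leaving out a library. With the replicate block, 0 genes were called in each comparison and the medians stayed at 0.16, 0.19 and 0.35 for ribosomal protein genes. After centring within each group, same-numbered libraries correlated from -0.652 to 0.375 and differently numbered ones from -0.606 to 0.640. With 3 libraries per group, whose centred values depend on each other, this cannot decide whether equal numbers mark a pairing.

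Under the 3 scalings the median of all genes was 0.14 to 0.21 for IR against control and 0.16 to 0.18 for IR+LYC against control, beside -0.01 for both as reported, and -0.03 to 0.02 for IR+LYC against IR. For ribosomal protein genes the medians became 0.46 (equal FPKM sums), 0.36 (recovered totals) and 0.39 (equal sums without mitochondrial, immunoglobulin and pancreatic genes) for IR against control, and 0.61, 0.59 and 0.58 for IR+LYC against control. For hosts they became 0.39, 0.31 and 0.33, and 0.67, 0.66 and 0.64; the latter was 0.59 with a pseudocount of 0.1, 0.37 without a filter and 0.57 with a mean of at least 5 FPKM. Less the median of all genes, the ribosomal protein medians were 0.13 to 0.25, 0.10 to 0.33 and 0.26 to 0.51 over 21 settings. Leaving out a library, they were 0.12 to 0.20, 0.10 to 0.32 and 0.25 to 0.49, and those of hosts 0.03 to 0.19, 0.26 to 0.41 and 0.34 to 0.52. In single genes the sign turned as follows. Under the 3 scalings, in the order above, Gas5 became 0.23, 0.14 and 0.16, Rps10 0.077, 0.021 and 0.038, and Rps29 0.15, 0.053 and 0.078 for IR against control, where Snhg10 became 0.011 with equal sums. For IR+LYC against control Rps29 became 0.12, 0.096 and 0.086 and Snhg10 0.11, 0.10 and 0.094. Relative to the ribosomal protein mean, Rplp0 became -0.015, -0.022 and -0.037 in the 3 comparisons, Snhg8 -0.083 for IR and -0.0092 for IR+LYC against control, Rpl22l1 -0.055 and Snhg6 -0.030 for IR+LYC against IR, and Rps27l -0.11 for IR+LYC against control. Leaving out a library, Gas5 ranged from -0.14 to 0.011 for IR against control and Snhg10 from -0.12 to 0.10 for IR+LYC against control. The centring takes the mean of the ribosomal protein genes in each library from every gene. A gene that rose less than that mean thus turns negative by construction. The 3 scalings replace the authors' library divisor and moved the median of all genes as given above. Why that divisor differs from the recovered total, and which scaling is right, was not tested.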
